A study of Mus musculus with 2 samples.

Results

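The miR-130 and miR-301 family was examined on 2 arrays of mouse knee joint cartilage. It was defined by name, as every array entry for miR-130a, miR-130b, miR-301a or miR-301b, with both strands (arms) of each hairpin. The rule took in 8 of the 1247 mouse miRNAs on the array, with 20 of the 3101 probes and 320 of the 49880 miRNA spots on each array. The rule uses names and no level. Of the 8 entries, 3 were well above background on both arrays (miR-130a-3p, miR-130b-3p and miR-301a-3p) and 5 on neither (miR-130a-5p, miR-130b-5p, miR-301a-5p, miR-301b-3p and miR-301b-5p).

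The Col2a1Tsc1KO sample came from the knee joint cartilage of male mice 8 weeks old. Its genotype is labelled Col2a1; Tsc1 KO, and the design text describes a deletion of Tsc1 specific to Col2a1, a collagen gene of cartilage cells. The control sample came from the same tissue, sex and age and is labelled wildtype; the sources used here do not say whether control mice carried a floxed allele or a Cre transgene alone. Tsc1 restrains mTORC1, a kinase complex that promotes cell growth. Each group had 1 array, the number of mice behind it is not stated, and both arrays lay on 1 slide, so the genotype and the array's position cannot be told apart. No test of the genotype was therefore made and no p-value is given. The arrays carry miRNA probes, so the level of Tsc1 itself was not checked here.

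A miRNA pairs with messenger RNAs mainly through its seed, bases 2 to 8 counted from its 5′ end, and lowers their translation or stability. MiRNAs with the same seed share many predicted targets, and for this family these include, in mouse and human cells, messenger RNAs of the fat-cell regulator Pparg and of the TGF-beta signal mediator Smad4. In human endothelial cells miR-130a is known as a promoter of vessel growth. Both arms of a hairpin start from 1 transcript, and usually 1 of them is kept.

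The mature sequences below, from RefSeq on build GRCm38.p6, show what the 3 measured members share, with the seed in capitals.
miR-130a-3p: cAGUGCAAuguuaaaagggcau
miR-130b-3p: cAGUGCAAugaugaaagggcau
miR-301a-3p: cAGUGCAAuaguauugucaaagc
They lie at chr2:84741116-84741137 on the minus strand, chr16:17124071-17124092 on the minus strand and chr11:87113054-87113076 on the plus strand. All 3 carry the seed AGUGCAA, which 7 of the 1679 mature names in the RefSeq table share (0.417%). Counted from the 5′ end, miR-130b-3p differs from miR-130a-3p by U11A and A13G, so 20 of 22 bases are equal. Set base against base without gaps, miR-301a-3p has 12 bases equal to miR-130a-3p and 11 equal to miR-130b-3p, and the first 9 are the same in all 3. RefSeq entries were found for 7 of the 8 members, and miR-301b-3p was the other one, so the count of names with the seed leaves it out.

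The 5p arms of the family have other seeds, again in capitals.
miR-130a-5p: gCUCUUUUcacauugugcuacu
miR-130b-5p: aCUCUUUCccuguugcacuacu
miR-301a-5p: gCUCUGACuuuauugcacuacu
miR-301b-5p: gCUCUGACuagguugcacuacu
The miR-301a-5p and miR-301b-5p seeds are the same, CUCUGAC. The hairpins of the 3 measured members are shown with both mature arms in capitals, the 5p arm first, because on these arrays signal was found for 1 arm of each.
Mir130a: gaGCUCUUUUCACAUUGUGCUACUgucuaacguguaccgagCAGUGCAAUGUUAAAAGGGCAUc
Mir130b: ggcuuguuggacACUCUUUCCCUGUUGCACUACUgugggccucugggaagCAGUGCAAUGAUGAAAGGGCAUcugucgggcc
Mir301: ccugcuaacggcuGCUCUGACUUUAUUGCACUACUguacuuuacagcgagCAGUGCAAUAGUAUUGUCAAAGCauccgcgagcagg

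The family comes from 3 loci. Mir130a, at chr2:84741115-84741178, lies outside the annotated genes, 987 bases from the long noncoding RNA gene Gm19426 and 2460 bases from the protein-coding gene Ypel4. Mir130b, at chr16:17124061-17124142, and Mir301b, at chr16:17124400-17124496, lie on 1 strand with 258 bases between them, and both fall within the span of the gene 2610318N02Rik. Mir301, the RefSeq symbol of the miR-301a gene, lies at chr11:87113004-87113089 within the span of Ska2, which codes for a protein of the mitotic spindle. Exon and intron positions were not used here.

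Because miR-130a-3p and miR-130b-3p are so alike, the probes that read them matter. The probes are shown 5′ to 3′ as DNA, with capitals at the 2 bases that pair with positions 11 and 13 of the miRNA, where the members differ.
miR-130a-3p, 18-base probe: atgccctttTaAcattgc
miR-130a-3p, 19-base probe: atgccctttTaAcattgca
miR-130b-3p, 17-base probe: atgccctttCaTcattg
miR-130b-3p, 18-base probe: atgccctttCaTcattgc
miR-301a-3p, 21-base probe: gctttgacaatactattgcac
miR-301a-3p, 20-base probe: gctttgacaatactattgca
Each probe matched its own miRNA at every base. The miR-130a-3p probes had 2 mismatches to miR-130b-3p and the miR-130b-3p probes had 2 to miR-130a-3p. How far a probe binds the other member was not tested. Aligned without gaps, each miR-301a-3p probe had at least 13 mismatches to either miR-130 member.

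The Col2a1Tsc1KO and control arrays had 21.1% and 19.6% of their miRNA spots marked well above background, with median background-subtracted intensities among those spots of 107 and 98.35 (arbitrary units). Negative control spots had 5th to 95th percentiles of -0.66 to 11.4 on the Col2a1Tsc1KO array and -0.79 to 12 on the control array, over 1000 spots each. No miRNA spot was saturated. A probe was taken as measured when over 50% of its usable spots, those not marked as outliers, were well above background, which held on both arrays for 476 probes of 257 miRNAs.

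miR-130a-3p was brighter on the Col2a1Tsc1KO array. Its 18-base probe had a lowest, median and highest spot intensity of 285, 301.5 and 311 on the Col2a1Tsc1KO array (16 usable spots), against 109, 122 and 131 on the control array (19 spots). Its 19-base probe had 363, 396.5 and 437 on the Col2a1Tsc1KO array (20 spots), against 152, 158.5 and 167 on the control array (16 spots). Every Col2a1Tsc1KO spot of these probes lay above every control spot of the same probe before any scaling. In a bulk sample, more RNA per cell and more cells that hold it cannot be told apart.

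miR-130b-3p was dimmer on the Col2a1Tsc1KO array. Its 17-base probe had a lowest, median and highest intensity of 27.6, 33.2 and 38.9 on the Col2a1Tsc1KO array (18 usable spots), against 49.1, 56.5 and 67.1 on the control array (20 spots). Its 18-base probe had 52, 58.9 and 66.1 on the Col2a1Tsc1KO array, against 85.9, 95.9 and 103 on the control array (19 spots on each). Spot ranges did not overlap for either probe, and here every control spot was the higher.

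miR-301a-3p differed least of the 3 between the arrays. Its 21-base probe had a lowest, median and highest intensity of 47.9, 60.1 and 73.4 on the Col2a1Tsc1KO array (18 usable spots), against 47.9, 53.95 and 61.8 on the control array (20 spots), and these ranges overlapped.

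**Figure D1:**
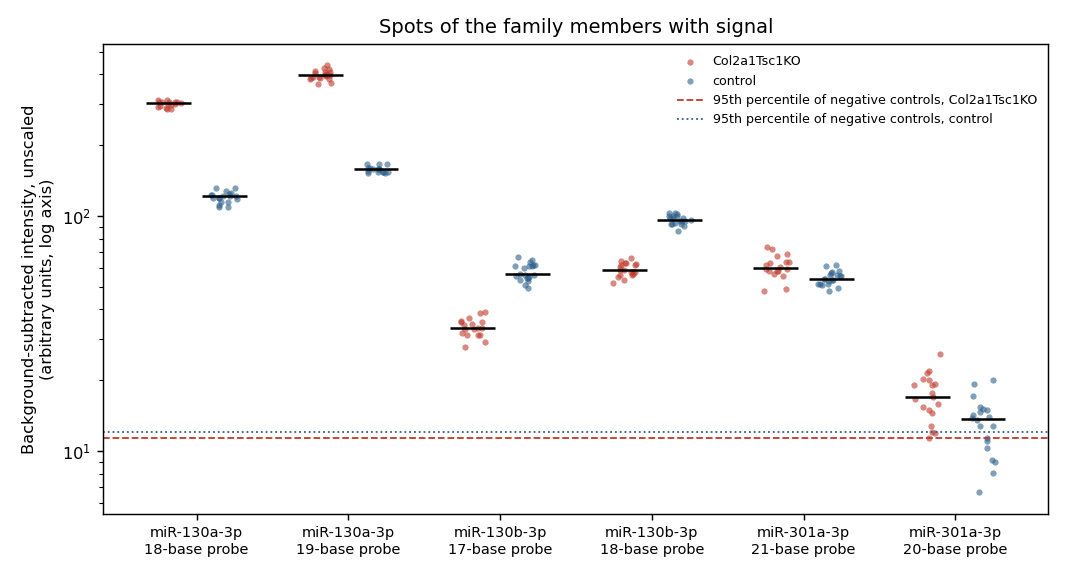
Background-subtracted spot intensity before scaling (log axis, arbitrary units) for the 6 probes of miR-130a-3p, miR-130b-3p and miR-301a-3p. Points are usable spots of the Col2a1Tsc1KO array and of the control array, bars are medians, and the broken lines are the 95th percentile of negative controls on each array (11.4 and 12); the 2 miR-130a-3p probes and the 2 miR-130b-3p probes separate the arrays in opposite directions.

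To compare the arrays, the 75th percentile of the 476 measured probes was taken as the scale of each, a step that lowers every log2 difference, Col2a1Tsc1KO minus control, by 0.41. After scaling, the log2 difference of miR-130a-3p was 0.91 ± 0.01 (± SE, taken over spots), which is 1.88-fold, with 0.91 and 0.92 from its probes. miR-130b-3p stood at -1.16 ± 0.02, or 2.23-fold lower on the Col2a1Tsc1KO array, with -1.20 and -1.12 from its probes. miR-301a-3p stood at -0.25 ± 0.04, or 0.839 times the control level, from 1 probe. These errors cover the spots of 1 array per group and hold no variation between mice.

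At a threshold of 2-fold, 1 of the 3 measured members passed, miR-130b-3p, downward. Of all 257 measured miRNAs, 33.1% passed in either direction, 15.6% upward and 17.5% downward, so the family's count is near the share of the whole array. With no scaling 23.0% of the 257 passed upward and 5.06% downward. The family's median log2 difference was -0.25, beside -0.22 over all 257 miRNAs, with 1 member higher and 2 lower. Its members were spread over the range: 82.5% of the measured miRNAs lay below miR-130a-3p, 47.9% below miR-301a-3p and 12.8% below miR-130b-3p.

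The count depends on the scaling, while the order of the members does not. With no scaling the log2 differences were 1.32 for miR-130a-3p, -0.75 for miR-130b-3p and 0.16 for miR-301a-3p, so that miR-130a-3p passed 2-fold and miR-130b-3p did not. Under the 13 alternatives, miR-130a-3p stayed positive, from 0.80 to 1.41, and miR-130b-3p stayed negative, from -1.16 to -0.45. The sign of miR-301a-3p turned with 5 of them and its range was -0.29 to 0.61. The 0.61 came from the software's totals per miRNA, which for miR-301a-3p do not rest on the same probes on both arrays, as given with the deposited values below. Scaling moves the median of all miRNAs as well: it was 0.19 with no scaling. Relative to that median, miR-130a-3p stood at 1.13, miR-130b-3p at -0.94 and miR-301a-3p at -0.038, in the unscaled values as in the reported ones.

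**Figure D2:**
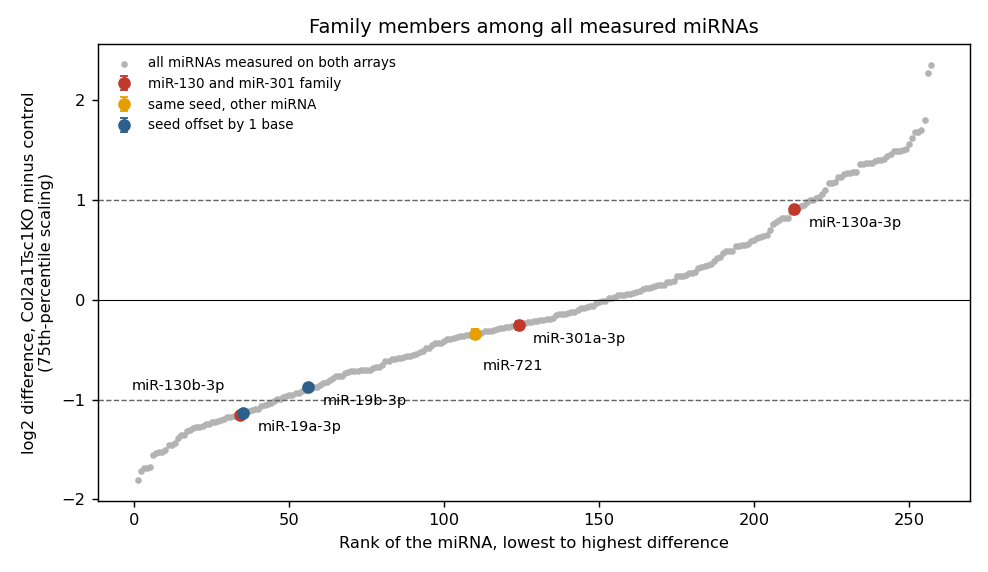
Scaled log2 difference, Col2a1Tsc1KO minus control, of each of the 257 miRNAs measured on both arrays (vertical axis) against its rank from lowest to highest (horizontal axis). Family members, miR-721 and the 2 miR-19 members are coloured with SE bars over spots, often smaller than the symbol, and broken lines mark 2-fold; miR-130a-3p (0.91), miR-301a-3p (-0.25) and miR-130b-3p (-1.16) lie far apart on the ranking.

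The gap between the 2 nearly identical members does not depend on any constant scaling, because a constant cancels. miR-130a-3p differed from miR-130b-3p by 2.07 ± 0.03 on the log2 scale in its Col2a1Tsc1KO minus control difference, which is 4.20-fold. Each miR-130a-3p probe set against each miR-130b-3p probe gave 2.02 to 2.12. The gap of miR-130a-3p to miR-301a-3p was 1.17 ± 0.05, or 2.25-fold, and that of miR-301a-3p to miR-130b-3p was 0.90 ± 0.05, or 1.87-fold. These 3 gaps exceeded the spread of the spots, and their spread between mice was not measured.

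**Figure D3:**
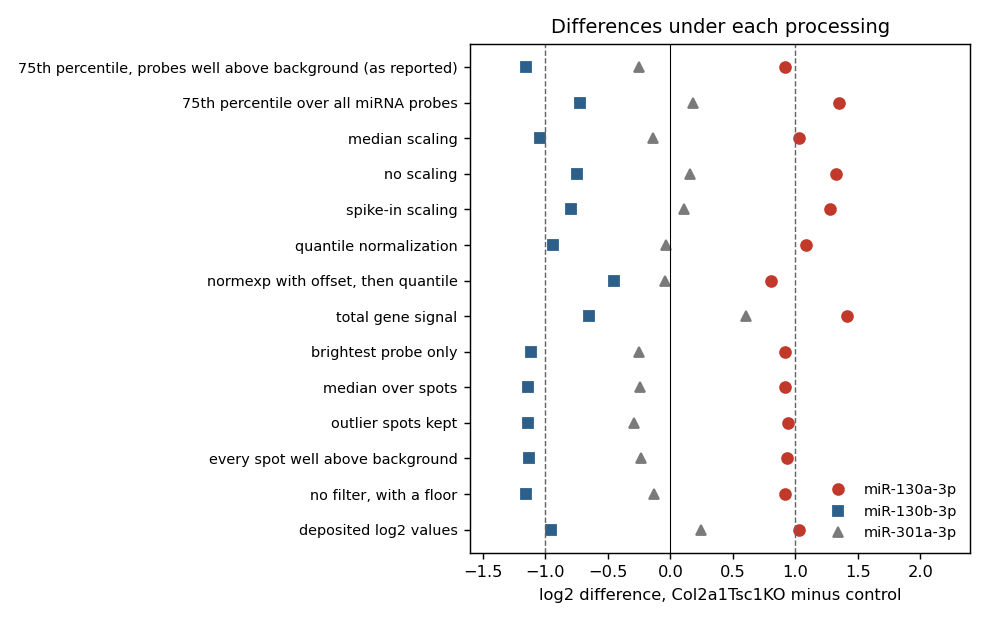
Log2 difference, Col2a1Tsc1KO minus control (horizontal axis), of miR-130a-3p, miR-130b-3p and miR-301a-3p under the reported processing (top row) and 13 alternatives (other rows), with broken lines at 2-fold. In every row miR-130a-3p lies to the right of 0 and miR-130b-3p to the left, while miR-301a-3p lies on either side.

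The other arms and both arms of miR-301b gave no signal above background. Their 14 probes had 0 of 191 usable spots well above background on the Col2a1Tsc1KO array and 0 of 192 on the control array. Their probe medians ran from -5.43 to 6.915 on the Col2a1Tsc1KO array and from -5.67 to 7.28 on the control array, within or below the range of negative controls. No difference is given for them, and a level below the array's detection remains possible. Thus miR-130b-3p was measured and miR-301b, 258 bases away on the same strand, was not detectable on either array.

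**Figure D4:**
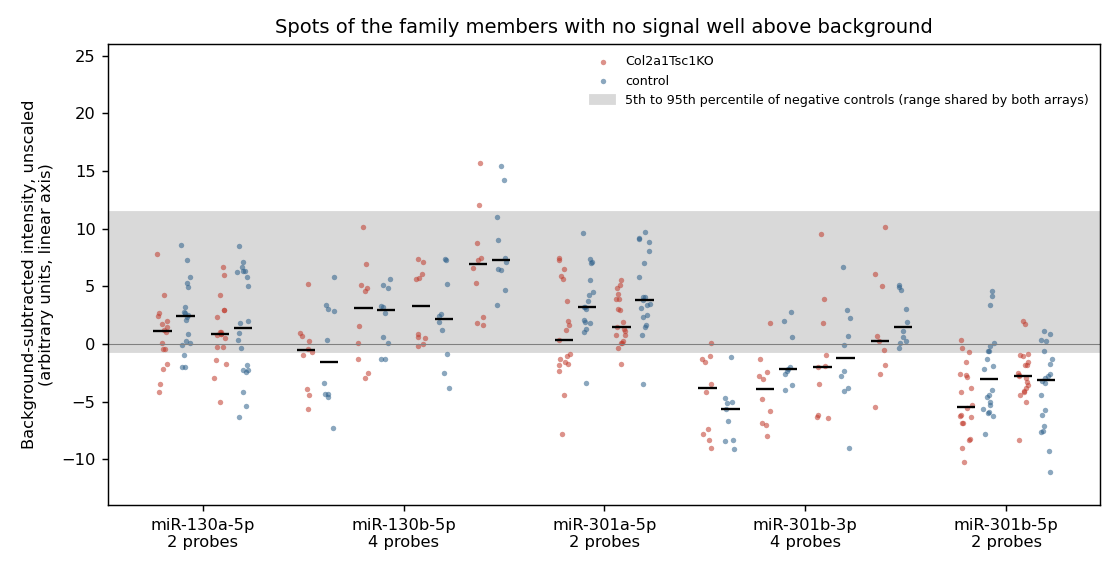
Background-subtracted spot intensity before scaling (linear axis, arbitrary units) for the 14 probes of the 5 members that were well above background on neither array. Points are usable spots of the Col2a1Tsc1KO array and of the control array, bars are medians per probe, and grey marks the range from the 5th to the 95th percentile of negative controls that both arrays share; all probe medians lie between -5.67 and 7.28.

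MiRNAs outside the family that carry the same seed were miR-130c, miR-721, miR-6341 and miR-6389, with 11 probes. miR-721 alone was measured, and its sequence, with the seed in capitals, shows how the family seed is followed by other bases.
miR-721: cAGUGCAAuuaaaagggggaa
Its 4 probes, 12 to 15 bases long, had medians of 34.2 to 40.85 on the Col2a1Tsc1KO array and 32.85 to 40.45 on the control array, and the spot ranges overlapped for each. Its scaled difference was -0.34 ± 0.05, and its sign turned under 4 of 13 alternatives. The miR-721 probes had 4 to 6 mismatches to miR-130a-3p, and how far they bind miR-130a-3p was not tested. miR-130c, miR-6341 and miR-6389 had no spot well above background.

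The miR-19 members carry a seed that is the family's seed shifted by 1 base, so 6 bases are shared. Both are made from the miR-17~92 cluster, known for promoting cell division, and miR-19b-3p also from Mir19b-2 on chromosome X with the same mature sequence, so its signal cannot be assigned to 1 of its loci. The seeds are in capitals.
miR-19a-3p: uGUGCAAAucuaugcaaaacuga
miR-19b-3p: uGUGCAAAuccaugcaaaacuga
Both were dimmer on the Col2a1Tsc1KO array. The 21-base probe of miR-19a-3p had a lowest, median and highest intensity of 124, 136 and 150 on the Col2a1Tsc1KO array, against 203, 216 and 232 on the control array. The 20-base probe of miR-19b-3p had 700, 768 and 859 on the Col2a1Tsc1KO array, against 957, 1000 and 1030 on the control array. Ranges did not overlap for these or for the second probe of each. The scaled differences were -1.13 ± 0.03 for miR-19a-3p and -0.88 ± 0.01 for miR-19b-3p, and both stayed negative under the 13 alternatives.

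MiRNAs known to act on the same messenger RNAs gave a mixed picture. As a background for these counts, 40.9% of all 257 measured miRNAs were higher on the Col2a1Tsc1KO array, 15.6% by 2-fold or more, and 59.1% were lower, 17.5% by 2-fold or more. Of 5 miRNAs known to target Pparg, all were measured and 3 were higher on the Col2a1Tsc1KO array, 2 of them by at least 2-fold: miR-27a-3p at 1.27 ± 0.01 and miR-27b-3p at 1.18 ± 0.02. Of these 5 miRNAs 3 are family members, and the median of 0.91, beside -0.22 over all miRNAs, is the value of miR-130a-3p itself. Of 6 miRNAs known to target Smad4, 5 were measured and miR-224-5p was not. The inflammation-linked miR-146a-5p was at least 2-fold higher, at 1.49 ± 0.04, while miR-18a-5p, at -1.72 ± 0.03, and miR-19a-3p were at least 2-fold lower. With no scaling miR-19a-3p stood at -0.72, short of 2-fold. Of the 5 measured entries 2 are family members, and the median of -0.25 is that of miR-301a-3p itself. Of 7 miRNAs linked to vessel growth and endothelium, 6 were higher, miR-130a-3p among them, and 2 passed 2-fold, the hypoxia-induced miR-210-3p at 1.42 ± 0.03 and miR-10b-5p at 1.41 ± 0.03. The arms of the endothelial miR-126, miR-126-3p and miR-126-5p, stood at 0.35 ± 0.01 and 0.14 ± 0.04. The 1 lower member was miR-296-5p at -0.14 ± 0.03, which turns positive with no scaling, since 0.41 is then added to each difference.

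Markers of the cells that a cartilage sample could hold also differed between the arrays, and their part in the family's differences was not tested. As a background for the counts, 40.9% of all 257 measured miRNAs were higher on the Col2a1Tsc1KO array and 59.1% were lower. Of 8 chondrocyte entries 6 were measured, with a summed scaled level of 13.5 on the Col2a1Tsc1KO array and 5.96 on the control array, 5 of them higher, miR-455-5p being the exception at -0.03 ± 0.14, and the defining miR-140-5p stood at 1.38 ± 0.01. miR-675-5p and miR-675-3p of that list were measured on neither array. All 4 muscle entries were measured and summed to 1.81 on the Col2a1Tsc1KO array and 3.46 on the control array, 3 of them lower. All 5 leukocyte entries were measured and summed to 11.0 on the Col2a1Tsc1KO array and 23.7 on the control array, 3 of them lower, beside the 59.1% lower on the whole array. Most of the sum was miR-223-3p of myeloid cells, with 8.91 on the Col2a1Tsc1KO array and 20.0 on the control array. It stood at -1.17 ± 0.01, whereas miR-150-5p stood at 0.64 ± 0.06 and miR-155-5p at 0.15 ± 0.06. Of 5 red cell entries 2 were measured on both arrays, summing to 8.52 on the Col2a1Tsc1KO array and 5.74 on the control array. Both were higher, and most of the sum was miR-451a, with 8.29 on the Col2a1Tsc1KO array and 5.66 on the control array. Of the others, miR-144-5p was measured on the Col2a1Tsc1KO array only, miR-486-3p on neither, and miR-486-5p was not analysed here. The 2 endothelial entries summed to 4.85 on the Col2a1Tsc1KO array and 3.81 on the control array. Of 4 adipocyte entries 3 were measured, summing to 0.811 on the Col2a1Tsc1KO array and 0.464 on the control array. The higher ones, miR-193b-3p at 1.69 ± 0.03 and miR-365-3p at 0.94 ± 0.03, are also chondrocyte entries. miR-378a-3p, on the adipocyte list alone, was lower, at -0.12 ± 0.02.

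For each measured member the 2 miRNAs outside the family with the closest scaled difference over the 2 arrays were found. For miR-130a-3p they were miR-193a-3p at 0.93 ± 0.06 and miR-365-3p at 0.94 ± 0.03. For miR-130b-3p they were miR-714 at -1.157 ± 0.08 and miR-223-3p at -1.17 ± 0.01. For miR-301a-3p they were miR-3102-5p.2-5p at -0.26 ± 0.03 and miR-5109 at -0.26 ± 0.01. With 1 array per group, likeness here is closeness of a single difference.

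In the deposited log2 table, whose making no source used here gives, miR-130a-3p stood at 8.02 for Col2a1Tsc1KO and 6.99 for control, and miR-130b-3p at 5.05 for Col2a1Tsc1KO and 6.01 for control. For these members the differences were 1.03 and -0.96. miR-301a-3p stood at 4.82 for Col2a1Tsc1KO and 4.58 for control, a difference of 0.25 with the opposite sign to the scaled probe value. The 5 members without signal were at the lowest value of each column, -3.32 for Col2a1Tsc1KO and -3.26 for control. A feature of the software's totals bears on miR-301a-3p: divided by the median ratio of total to summed probe intensity over the detected miRNAs of the array, its total was 78.1 for Col2a1Tsc1KO, where its probes summed to 78.1, and 54.5 for control, where the 21-base probe alone was 54.5 and both summed to 67.6. The control total thus equals 1 probe and the Col2a1Tsc1KO total equals 2. Whether the deposited values were made from these totals is not known, and a link to their sign was not tested.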

How the data were processed

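Total RNA of knee joint cartilage was labelled with Cy3 and hybridised to one-colour Agilent mouse miRNA arrays, 1 for Col2a1Tsc1KO and 1 for control, per the labels. Agilent Feature Extraction 10.7 located the spots and wrote a background-subtracted intensity for each, unscaled between arrays, per the submitters' processing notes (software) and per the file headers (steps). The deposited log2 table holds a row for every miRNA or control. Its normalization is not given in the sources used, and stays unknown. Its column medians, -3.32 for Col2a1Tsc1KO and -3.26 for control, are also its lowest values. Its differences correlated with the scanner-based ones at Pearson's r 0.96 across 257 miRNAs, which are not independent replicates, so it runs in the direction of the signal on a log2 scale.

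From the spot files, control and outlier-marked spots were dropped and the log2 intensities of each probe's spots were averaged. A probe was measured when over 50% of its usable spots were well above background. The 75th percentile of the 476 probes measured on both arrays set each array's scale, and the difference of a miRNA, Col2a1Tsc1KO minus control, is the mean over such probes, with SE over spots. Each difference in the reported processing was taken within a probe. The software's totals and the deposited values, used as alternatives, are given per miRNA. Only the summed levels of the marker lists combine levels of different miRNAs, read by different probes. Computing used Python 3.11.15 with pandas 2.3.3, and limma 3.58.1 in R 4.3.3 for normexp. The steps were tested on simulated data.

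The number of arrays limits the precision, and 2-fold served only for counts. The miRNAs named are all family members, those with the same or the offset seed, the members of the target and marker lists, and the 2 with the closest difference to each member. Members and lists were chosen with earlier results of these data known. The 13 alternatives covered scaling, background correction, probe choice, spot filters and the deposited values. Sequences and positions are RefSeq's, on GRCm38.p6; probe sequences come from the array files.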

Additional observations from a re-analysis of the deposited data

Results flagged for a closer look

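One probe of miR-301a-3p, with 20 bases, showed signal outside the comparison. It was left out because too few of its spots were well above background, with 3 of 19 usable spots on the Col2a1Tsc1KO array and 0 of 20 on the control array. Its median intensity was 16.9 on the Col2a1Tsc1KO array and 13.65 on the control array, each above the 95th percentile of that array's negative controls (11.4 and 12). Its spots ran from 11.4 to 25.8 on the Col2a1Tsc1KO array and from 6.66 to 20 on the control array, so they overlapped. Its scaled log2 difference was -0.0068 ± 0.12, beside -0.25 ± 0.04 for the 21-base probe.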

How the results depend on the processing

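No paired analysis was possible because each group had 1 array, and for the same reason no replicate could be left out. All 13 alternatives kept the sign of miR-130a-3p, miR-130b-3p and the gap between them. The gap could not change under those that only add a constant, and its range over all 13 was 1.25 to 2.08. Where the cause is not given here, it was not tested. For miR-130a-3p the log2 difference was 1.35 with an all-probe 75th percentile, 1.03 with the median, 1.32 with no scaling, 1.28 with the spike-ins, 1.08 with quantile normalization, 0.80 with normexp, 1.41 with the totals per miRNA that the software wrote (total gene signals) and 1.03 in the deposited log2 values. In the same order, miR-130b-3p gave -0.72, -1.04, -0.75, -0.79, -0.94, -0.45, -0.65 and -0.96. miR-301a-3p, which is also the family's median, gave 0.18, -0.14, 0.16, 0.11, -0.032, -0.042, 0.61 and 0.25. The 0.61 compares a Col2a1Tsc1KO total equal to both probes with a control total equal to the 21-base probe alone. With undetected probes kept at a floor miR-301a-3p was -0.13 and the family median 0, since 5 members then sit at the floor. miR-721 turned positive with the all-probe percentile (0.091), no scaling (0.068), the spike-ins (0.022) and the total gene signals (0.14). The all-probe percentile, the median, no scaling and the spike-ins add a constant by construction, and normexp's offset of 50 shrinks dim differences. The total gene signals hold 84 totals on the Col2a1Tsc1KO array and 76 on the control array above 1.5 times the median ratio to the summed probes, which bears on their scaling. The number of members at least 2-fold apart was 2 with the median (1 higher, 1 lower) and 0 with normexp. With the all-probe percentile, no scaling, the spike-ins, quantile normalization, total gene signals and deposited values, 1 was higher and 0 lower, where the reported setting had 0 higher and 1 lower. Over all miRNAs the split of higher and lower was 40 and 45 as reported, 59 and 13 with no scaling or the all-probe percentile, 55 and 14 with the spike-ins, 45 and 36 with the median, 40 and 35 with quantile normalization, 16 and 10 with normexp, 80 and 24 with total gene signals (of 304) and 51 and 54 in the deposited values (of 304). The gap of miR-130a-3p to miR-130b-3p, an analysis chosen after seeing the data, was 2.07 as reported, 1.25 with normexp and 1.98 in the deposited values. Signal over background limits the 5 undetected members and the 20-base miR-301a-3p probe.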
